A study of Mus musculus with 86 samples.

Results

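The tricarboxylic acid cycle enzymes are described here by 9 genes, Cs, Idh2, Idh3a, Idh3b, Idh3g, Ogdh, Suclg1, Fh1 and Mdh2, in the hearts of mice given the beta-adrenergic agonist isoproterenol or left untreated. They were chosen by name: every probe set that the platform's annotation assigns to 1 of these symbols was taken, which gave 20 of the 45037 probe sets that are no control, for 9 of 18193 genes, and each probe set was kept apart. RNA from whole hearts had been read on 86 Affymetrix arrays in 4 lines of mice, the inbred FVB and C57BL/6, a line named B2KO whose name the labels do not spell out, and the hybrid B6129SF2/J. Treated mice received isoproterenol for 14 days at 120 µg per g of body weight per day, and the others were untreated, with random assignment per the labels. FVB and B6129SF2/J each had 10 untreated and 12 treated arrays in the comparison, C57BL/6 had 11 untreated and 10 treated, and B2KO had 10 of each. Of 11 treated B2KO arrays, replicates 4 and 9 held the same values (r = 0.99999976) and entered as their mean, so that 85 arrays were compared. The labels give neither age nor sex, and they speak of 20 mice each in FVB, C57BL/6 and B2KO, for which 22, 21 and 21 arrays were at hand. The study set FVB and B2KO, whose systolic function failed under the infusion, against C57BL/6, whose dysfunction was diastolic, with B6129SF2/J as a further test group.

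The tricarboxylic acid cycle lies in the mitochondrial matrix and oxidises the acetyl groups that fatty acids, glucose, lactate and ketone bodies deliver. Its dehydrogenases hand electrons to the respiratory chain as NADH, which drives most of the ATP synthesis of the beating heart. Cardiac muscle is packed with mitochondria and carries high levels of these enzymes, and the supply of the cycle with fuel is known to shift under adrenergic stress and hypertrophy.

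Values are log2 of the deposited intensity, in which each array's own median is 0. A level therefore says how far a probe set lies above the middle of its array, and a higher level at one probe set than at another is not read as more RNA. The brightest probe set of each of the 9 genes lay far above the array median, with means between 8.20 and 10.2 over all arrays. All 20 probe sets had a group mean above 0 and so passed the filter, but 4 of them were dim, with a mean of 0.52 for Idh2 1453601_at, −0.19 for Idh3a 1447701_x_at, 2.07 for Idh3b 1441271_at and 3.34 for Ogdh 1445632_at. In Affymetrix naming, the ending _a_at marks probes shared by transcripts of 1 gene, _s_at probes shared by several transcripts that may come from different genes, and _x_at probes that may bind unrelated sequences. Because whole hearts were read, fewer cells of a type and less RNA per cell cannot be told apart. The p-values measure the spread between these arrays, and the number of arrays limits the precision.

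Some arrays stood apart and touch the results below. Treated B2KO replicate 10 correlated with the other arrays at a median r of 0.573, against 0.831 to 0.963 for the rest, and is called the failed array. There Ogdh 1451274_at read −0.18, Suclg1 0.86, Idh3g 1416789_at 0.88 and Idh2 1450048_a_at 1.56, whereas Cs 1450667_a_at read 10.66 and Mdh2 1433984_a_at 11.07, the highest of their group. Treated FVB replicate 2 and treated B2KO replicate 7 were in doubt by strain markers, and 5 arrays by the excess of 3′ over 5′ Gapdh signal (2.06 to 7.43 log2 units), a sign of degraded RNA. Among the latter, untreated B2KO replicate 8 read 2.73 at Ogdh 1451274_at, where the other untreated B2KO arrays read 8.65 to 9.78. Untreated B2KO replicate 1 reads as female by Xist and a Y-linked gene, and is not counted among the 8 arrays in doubt. The latter are kept in the values below unless a value is given without them.

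**Figure D1:**
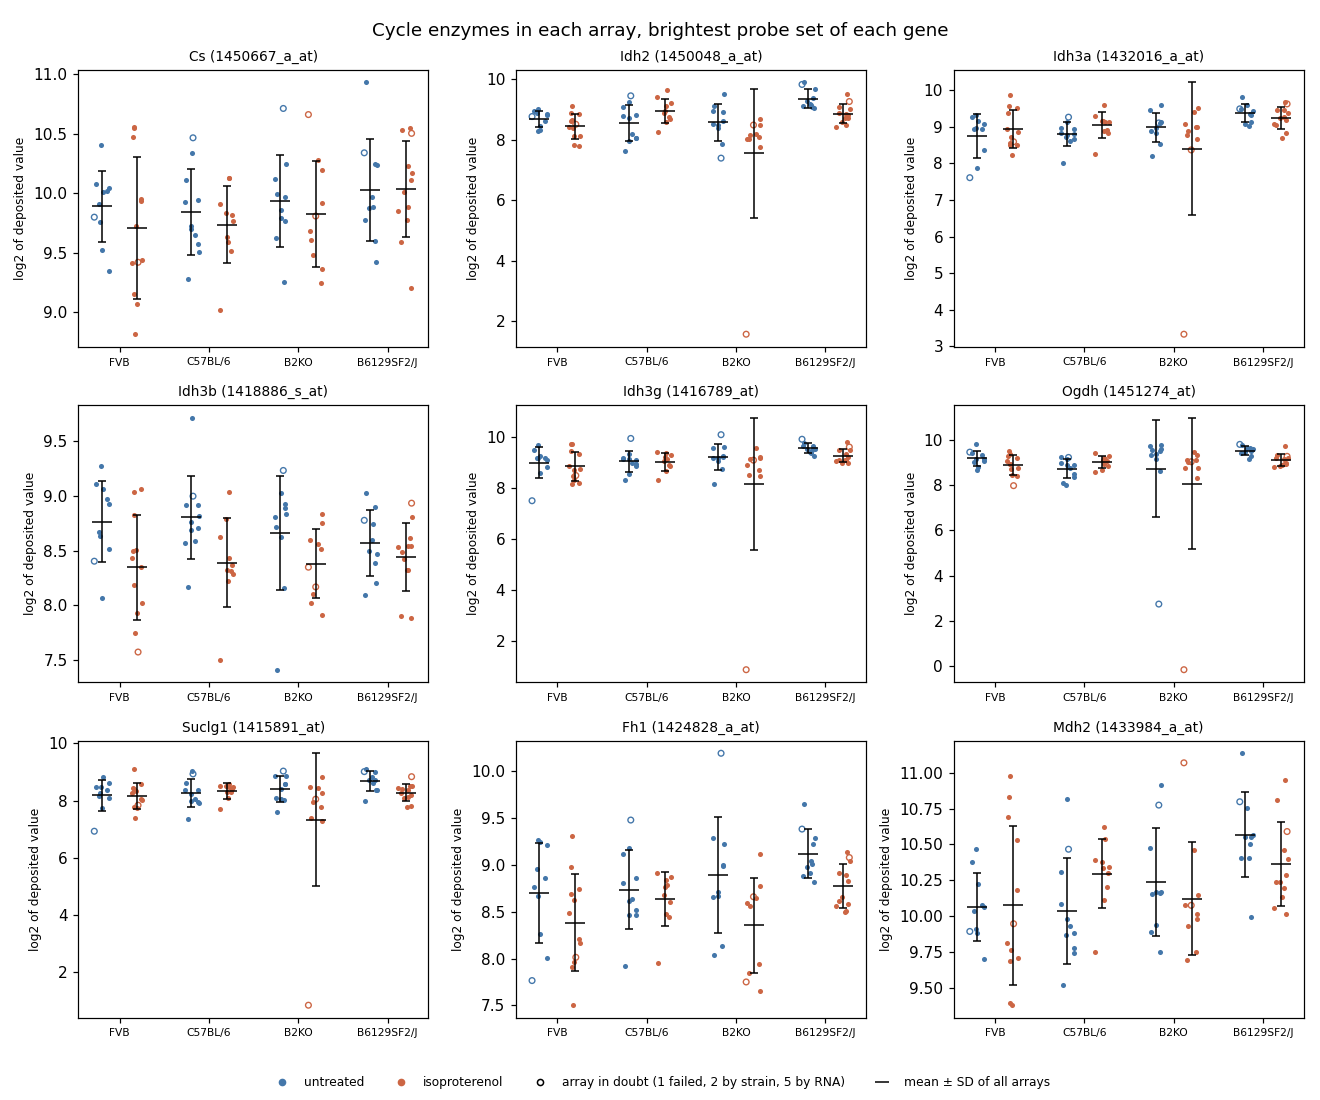
Log2 of the deposited value (y axis, array median at 0) of the brightest probe set of each of the 9 genes in each array, by line (x axis) and treatment (colour). Points are arrays, hollow points the 8 arrays in doubt, and bars the mean ± SD of all arrays of the group. Treated and untreated arrays overlap in every line, and the failed array is the point near or below 3.33 in the treated B2KO groups of Idh2, Idh3a, Idh3g, Ogdh and Suclg1.

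Few of the cycle's probe sets were called between treated and untreated arrays, as were few of all probe sets in FVB, B2KO and B6129SF2/J. Treated minus untreated differences were tested in 1 linear fit over the 8 groups (limma, Benjamini-Hochberg adjustment over 24885 probe sets, threshold adjusted p under 0.05). In FVB 0 of 20 probe sets passed (limma, 2 at an unadjusted p under 0.05), where 0.514% of all probe sets tested were called lower and 0.627% higher. In C57BL/6 1 was called lower and 1 higher, beside 9.89% lower and 13.3% higher among all. In B2KO 0 passed (limma, 7 at an unadjusted p under 0.05, all lower), beside 0.796% and 0.0522%, and in B6129SF2/J 0 passed (limma, 1 at an unadjusted p under 0.05), beside 2.7% and 2.35%. At such shares 0 of 20 in FVB, B2KO and B6129SF2/J is no result about the members. Below, 4 values without line names stand in the order FVB, C57BL/6, B2KO, B6129SF2/J. The 20 differences ran from −0.58 to 0.19 in FVB, from −2.29 to 0.58 in C57BL/6, from −1.08 to −0.04 in B2KO and from −0.52 to 0.71 in B6129SF2/J. Without the failed array those in B2KO ran from −0.58 (Ogdh 1445632_at) to 0.62 (Idh3a 1422501_s_at).

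The medians of the 20 differences were −0.17 in FVB, 0.02 in C57BL/6, −0.52 in B2KO and −0.17 in B6129SF2/J, beside medians over all probe sets tested of −0.01, 0.08, −0.23 and −0.01. Negative differences numbered 14, 10, 20 and 14 of 20, and 14, 12, 17 and 11 after quantile normalization. Without the failed array the B2KO median was −0.22, with 16 negative, beside −0.06 for all probe sets tested. The median SE of a single probe set's difference was 0.31 or 0.32 in each line.

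Because 1 estimate of the spread was shared by all 8 groups, each line was also fitted on its own arrays. Idh3a 1447701_x_at fell below the filter in FVB and B6129SF2/J there, which left 19 probe sets. These fits called 0 of 19 in FVB (limma, 0 at an unadjusted p under 0.05), 0 of 20 in B2KO (limma, 2 at an unadjusted p under 0.05) and in C57BL/6 the same 2 as above. Among all probe sets tested, 91 of 22756 were called lower and 109 higher in FVB. In C57BL/6 2693 of 23163 were lower and 4002 higher. In B2KO 0 of 22874 were called, so its 0 of 20 is no result about the members. In B6129SF2/J, whose own arrays include 2 in doubt by their Gapdh signal (untreated replicate 8 and treated replicate 7), 6 of 19 probe sets passed, all lower in treated hearts: Cs 1422578_at (−0.44, limma adjusted p = 0.00604), Idh2 1450048_a_at (−0.50, limma adjusted p = 0.0117), Ogdh 1451274_at (−0.41, limma adjusted p = 0.0114), Mdh2 1416478_a_at (−0.39, limma adjusted p = 0.0183), Fh1 (−0.34, limma adjusted p = 0.0353) and Suclg1 (−0.40, limma adjusted p = 0.0442). At each of the 6, 11 of 12 treated arrays lay below the untreated mean. In the same fit 2996 of 22908 probe sets were called lower and 2331 higher. None of the 6 was called in the fit over 8 groups, as deposited or after quantile normalization, and the line alone was not fitted on normalized values.

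**Figure D2:**
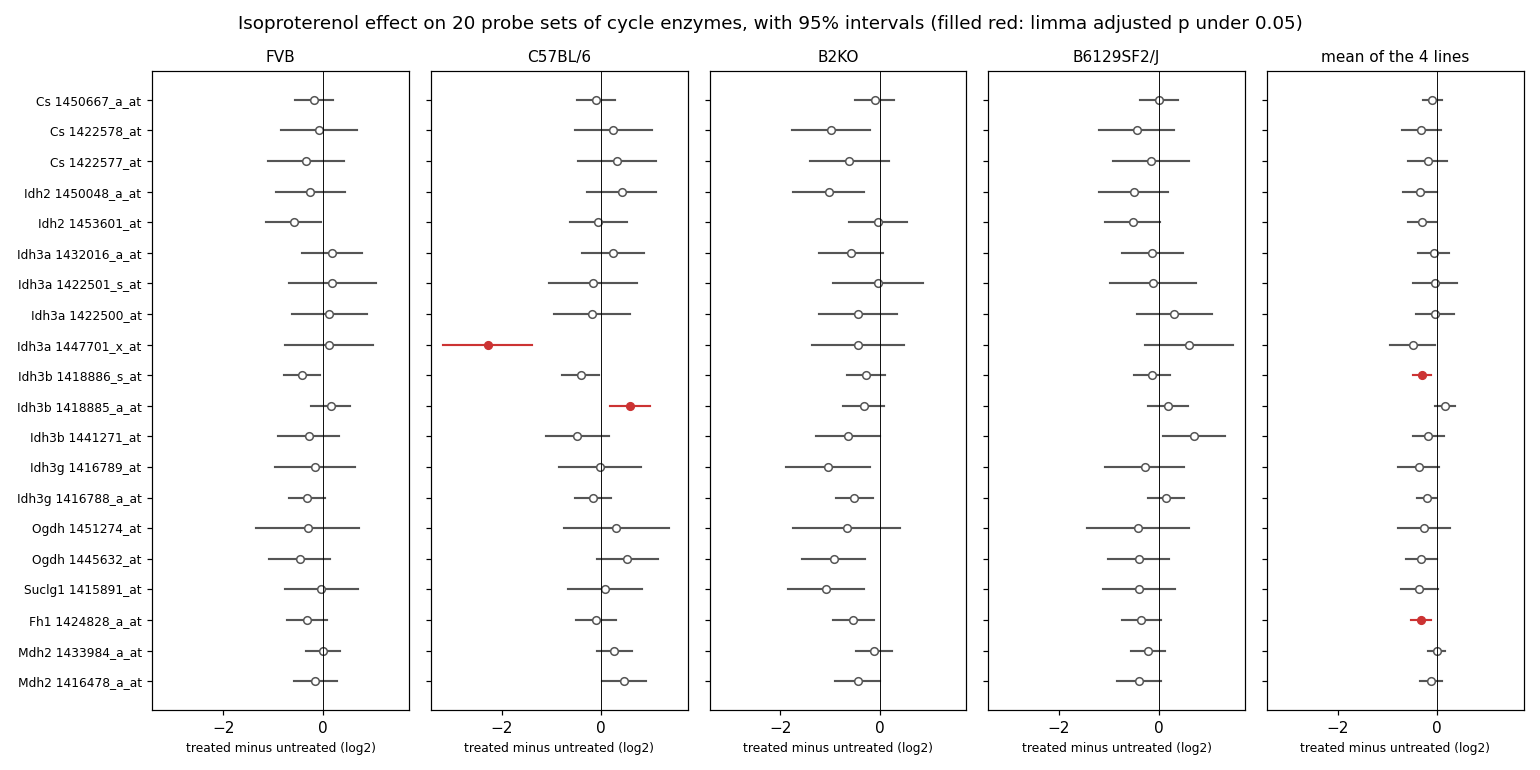
Treated minus untreated difference in log2 units (x axis) for the 20 probe sets (y axis) in each of the 4 lines and for the mean of the 4 lines. Points are limma estimates from the fit over 8 groups, bars 95% intervals, and filled red marks a limma adjusted p under 0.05. Filled points are Idh3a 1447701_x_at and Idh3b 1418885_a_at in C57BL/6, and Idh3b 1418886_s_at and Fh1 for the mean of the 4 lines.

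Citrate synthase, encoded by Cs, condenses acetyl-CoA with oxaloacetate and opens the cycle. Its 3 probe sets were not called in any line. At 1450667_a_at the differences were −0.18 in FVB (95% interval −0.56 to 0.20), −0.10 in C57BL/6 (−0.49 to 0.28), −0.11 in B2KO (−0.51 to 0.29; −0.20 without the failed array) and 0.01 in B6129SF2/J (−0.37 to 0.39). These intervals are the tightest of the gene and leave room for changes of up to about 0.56 in size. After quantile normalization this probe set was called lower in C57BL/6 (−0.38, limma adjusted p = 0.00786).

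Idh2 encodes the mitochondrial isocitrate dehydrogenase that uses NADP and supplies NADPH to the matrix. At 1450048_a_at untreated and treated means were 8.69 ± 0.26 (SD, n = 10) and 8.44 ± 0.42 (n = 12) in FVB, 8.54 ± 0.59 (n = 11) and 8.94 ± 0.40 (n = 10) in C57BL/6, and 9.36 ± 0.32 (n = 10) and 8.86 ± 0.32 (n = 12) in B6129SF2/J. In B2KO they were 8.57 ± 0.61 (n = 10) and, without the failed array, 8.21 ± 0.29 (n = 9). The treated mean was thus above the untreated mean in C57BL/6 and below it in the other 3 lines, and the groups overlapped in each. No line passed, with differences of −0.25 in FVB, 0.41 in C57BL/6, −1.03 in B2KO and −0.50 in B6129SF2/J (limma adjusted p = 0.887, 0.435, 0.123 and 0.49). Without the failed array the B2KO difference was −0.37.

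Isocitrate dehydrogenase that uses NAD, a rate-controlling step of the cycle, is built from a catalytic subunit encoded by Idh3a and from the subunits of Idh3b and Idh3g, which take part in its allosteric control. Idh3a was read by 4 probe sets, and the 3 bright ones were not called in any line. Their differences ran from 0.14 to 0.19 in FVB, from −0.19 to 0.24 in C57BL/6, from −0.58 to −0.04 in B2KO and from −0.13 to 0.32 in B6129SF2/J. The failed array set the sign in B2KO at 2 of the 3: without it 1432016_a_at changed from −0.58 to −0.02, 1422501_s_at from −0.04 to 0.62 and 1422500_at from −0.44 to 0.22. Without the 8 arrays they were 0.07, 0.18 and near 0. At the dim 1447701_x_at, untreated C57BL/6 arrays read from −1.59 to 2.54 (median 1.61) and treated ones from −2.34 to 0.55 (median −1.39). All 10 treated arrays lay below the untreated mean, although the groups overlapped, and the difference of −2.29 ± 0.45 (SE) passed (limma adjusted p = 0.000121). Its change against 1432016_a_at within the same arrays was −2.53 (permutation test, two-sided, adjusted p = 0.0061), so the bright Idh3a probe set did not share this shift. Group means at 1447701_x_at in the other lines ran from −0.89 to 0.32, around the array median. In C57BL/6 they were 1.22 untreated and −1.07 treated, so the untreated group stood further from the other lines.

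Idh3g lies on the X chromosome, and its 2 probe sets were not called in any line. At 1416789_at the differences were −0.15, −0.03, −1.04 and −0.28. The B2KO value contains the failed array, without which the treated B2KO mean was 8.98 ± 0.36 (n = 9) beside 9.21 ± 0.52 (n = 10) untreated, a difference of −0.23. Untreated B2KO replicate 1, which reads as female, was the lowest untreated B2KO array at this probe set (8.15). It was also the lowest of its group at Cs 1422578_at, Idh3a 1432016_a_at, Idh3b 1418886_s_at, Suclg1 and Fh1, which are not on the X chromosome. Its excess of 3′ over 5′ Gapdh signal was 1.77, under the limit of 2 for doubt. Without this array the differences in B2KO were −1.16 at 1416789_at and −0.53 at 1416788_a_at, neither called (limma adjusted p = 0.141 and 0.14).

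The 3 Idh3b probe sets disagreed. At 1418886_s_at, FVB arrays read 8.07 to 9.28 untreated (median 8.80) and 7.58 to 9.06 treated (8.39). C57BL/6 arrays read 8.17 to 9.71 (8.77) and 7.50 to 9.04 (8.35), B2KO arrays 7.41 to 9.23 (8.82) and 7.91 to 8.83 (8.43), and B6129SF2/J arrays 8.09 to 9.03 (8.54) and 7.88 to 8.93 (8.51). The treated median was the lower one in each line, by little in B6129SF2/J, and the groups overlapped in all. Differences of −0.42, −0.41, −0.28 and −0.13 did not pass in any single line (limma adjusted p = 0.35, 0.0944, 0.423 and 0.792).

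At 1418885_a_at of the same gene, FVB arrays read 3.54 to 5.32 untreated (median 4.95) and 4.00 to 5.91 treated (4.77), and B2KO arrays 4.16 to 5.96 (5.03) and 3.48 to 5.55 (4.80). C57BL/6 arrays read 3.20 to 4.94 (4.45) and 4.58 to 5.16 (4.88), and B6129SF2/J arrays 4.21 to 4.96 (4.61) and 4.35 to 5.16 (4.81). In C57BL/6 all 10 treated arrays lay above the untreated mean. The difference there, 0.58 ± 0.20 (SE), passed (limma adjusted p = 0.0291), and it ended as a call when untreated C57BL/6 replicate 2, 3 or 6 or treated replicate 2 was left out. With arrays centred on the median of their probe sets above the filter it was 0.40 (limma adjusted p = 0.055). The third probe set, 1441271_at, gave −0.29, −0.48, −0.64 and 0.71 and was not called in any.

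A factor common to all values of 1 array cancels in differences between its probe sets, so the disagreement was tested on such differences. How widely the values of an array spread does not cancel. The tests were run on deposited values only, and the part of that spread in them was not tested. For all 16 pairs of probe sets of the same gene, the difference between the pair within each array was compared between treated and untreated arrays, in each line and over the 4 lines. These are 80 permutation tests (two-sided, 100000 resamples within lines, Benjamini-Hochberg over the 80), chosen after the disagreement was known, of which 14 passed, and 13 of them also without the 8 arrays. Such disagreement was not confined to Idh3b, which gave 5 of the 14, beside 6 from Idh3a, 2 from Cs and 1 from Idh3g. The Cs pair of 1422578_at minus 1450667_a_at changed by 0.34 in C57BL/6 (permutation adjusted p = 0.0061) and by −0.45 in B6129SF2/J (permutation adjusted p = 0.01). In B6129SF2/J, 1422500_at minus 1422501_s_at of Idh3a changed by 0.43 (permutation adjusted p = 0.0004), and 1416788_a_at minus 1416789_at of Idh3g by 0.43 (permutation adjusted p = 0.0061).

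For Idh3b, 1418885_a_at minus 1418886_s_at averaged −4.07 ± 0.40 untreated (SD, n = 10) and −3.49 ± 0.46 treated (n = 12) in FVB. The same difference was −4.50 ± 0.40 (n = 11) and −3.51 ± 0.44 (n = 10) in C57BL/6, −3.62 ± 0.33 (n = 10) and −3.67 ± 0.53 (n = 10) in B2KO, and −3.98 ± 0.28 (n = 10) and −3.67 ± 0.37 (n = 12) in B6129SF2/J.

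The gap between these Idh3b probe sets narrowed with treatment in FVB by 0.57 (permutation adjusted p = 0.0319, 11 of 12 treated arrays above their controls' mean) and in C57BL/6 by 0.99 (permutation adjusted p = 0.00293, 10 of 10). In B6129SF2/J the change of 0.31 did not pass (permutation adjusted p = 0.178, 9 of 12), nor did that of −0.04 in B2KO (permutation adjusted p = 0.983, 5 of 10), which was 0.20 without the arrays in doubt (permutation adjusted p = 0.46). The mean change over the 4 lines was 0.46 (permutation p = 1e-05, the smallest these resamples can give, adjusted p = 0.0004), and 0.53 without the 8 arrays (permutation adjusted p = 0.0008). Because this disagreement was known from the same arrays before the test was chosen, these p-values are no independent evidence for it. RefSeq lists 2 transcripts of Idh3b, and which of them each probe set reads was not tested.

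**Figure D3:**
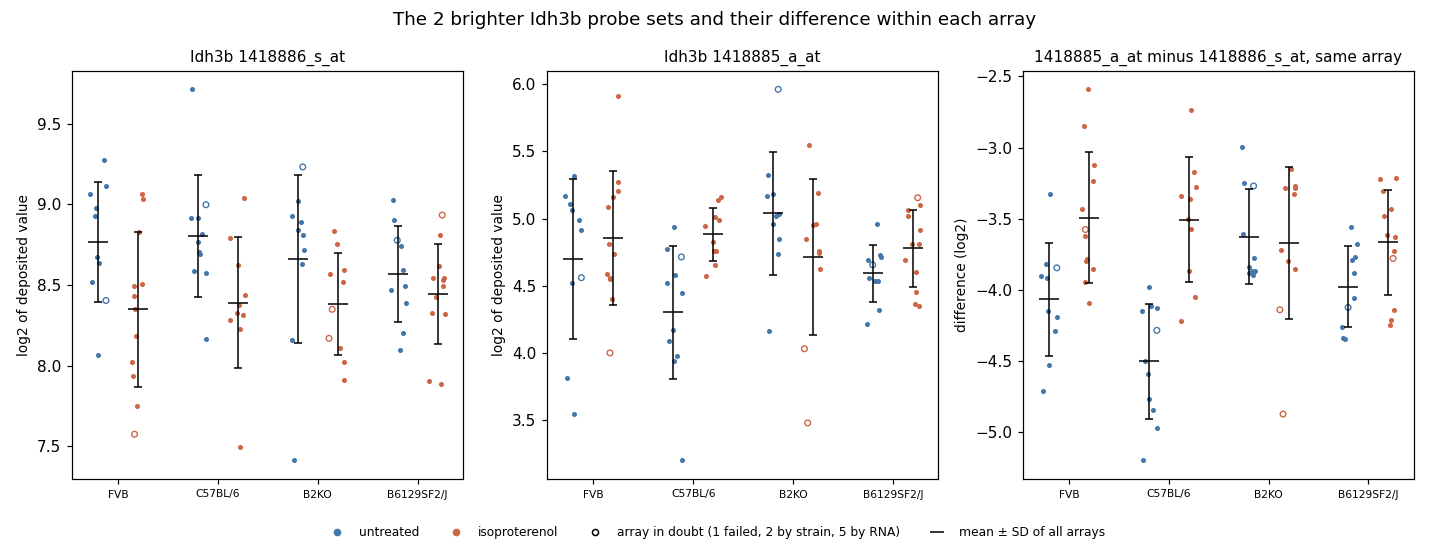
Log2 of the deposited value of Idh3b probe sets 1418886_s_at (left) and 1418885_a_at (middle), and their difference within each array in log2 units (right), by line and treatment. Points are arrays, hollow points arrays in doubt, bars the mean ± SD. Treated C57BL/6 arrays tend to lie lower on the left and higher in the middle, and their difference averages −3.51 against −4.50 untreated.

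Ogdh encodes the first, decarboxylating subunit of the 2-oxoglutarate dehydrogenase complex, another controlled step. The bright 1451274_at gave −0.30 in FVB, 0.30 in C57BL/6, −0.67 in B2KO and −0.41 in B6129SF2/J, with the widest errors of the set (SE 0.52 to 0.54), and none passed. Those errors contain the failed array and untreated B2KO replicate 8, and the sign in B2KO turned with them: the difference was 0.25 without the failed array and −0.43 without the 8 arrays. At the dimmer 1445632_at, treated arrays read 2.43 to 3.88 (median 3.37) beside 3.04 to 4.49 untreated (3.48) in FVB, and 3.01 to 4.08 (3.53) beside 1.26 to 4.53 (3.25) in C57BL/6. In B2KO they read −0.25 to 4.16 (3.09) beside 2.06 to 4.77 (3.92), and in B6129SF2/J 2.48 to 4.08 (3.12) beside 2.63 to 4.51 (3.58). All 10 treated C57BL/6 arrays lay above the untreated mean of their line, whereas 10 of 12 in FVB, 8 of 10 in B2KO and 10 of 12 in B6129SF2/J lay below theirs. The untreated C57BL/6 arrays were split: replicates 1, 2, 3, 4 and 6 read 1.26 to 2.71 and the others 3.25 to 4.53. The treated C57BL/6 arrays overlapped the higher of these controls and lay above the lower ones. No single line passed, at −0.47, 0.52, −0.93 and −0.40, and without the failed array the B2KO difference was −0.58.

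Suclg1 encodes the shared subunit of succinyl-CoA synthetase, the step that forms ATP or GTP directly. It gave −0.03 in FVB (95% interval −0.75 to 0.70), 0.07 in C57BL/6 (−0.67 to 0.82), −1.08 in B2KO (−1.84 to −0.31) and −0.40 in B6129SF2/J (−1.13 to 0.33), and none passed. Without the failed array the treated B2KO mean was 8.05 ± 0.51 (n = 9), beside 8.40 ± 0.46 untreated (n = 10), so most of the B2KO difference came from that array.

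Fh1 encodes fumarase, which hydrates fumarate to malate. FVB arrays read 7.77 to 9.27 untreated (median 8.82) and 7.50 to 9.31 treated (8.35), and C57BL/6 arrays 7.92 to 9.48 (8.64) and 7.95 to 8.91 (8.72). B2KO arrays read 8.04 to 10.19 (8.85) and 7.66 to 9.12 (8.58), and B6129SF2/J arrays 8.82 to 9.65 (9.03) and 8.49 to 9.14 (8.75). The treated median was lower in FVB, B2KO and B6129SF2/J and slightly higher in C57BL/6, with overlap in each line. Differences of means were −0.32, −0.10, −0.54 and −0.34, and no single line passed.

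Malate dehydrogenase of the mitochondrion, encoded by Mdh2, regenerates oxaloacetate. Its probe set 1433984_a_at differed by 0.01 in FVB (95% interval −0.33 to 0.35), 0.26 in C57BL/6 (−0.09 to 0.61), −0.12 in B2KO (−0.48 to 0.24) and −0.20 in B6129SF2/J (−0.54 to 0.14). At 1416478_a_at the differences were −0.15, 0.46, −0.45 and −0.39. Without the failed array the B2KO differences were −0.22 at 1433984_a_at and −0.20 at 1416478_a_at. Neither probe set passed in a line, and after quantile normalization 1416478_a_at was called higher in C57BL/6 (0.27, limma adjusted p = 0.0394).

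The 4 treated minus untreated differences were then averaged with equal weight, which lowered the median SE to 0.16. Fumarase and 1 Idh3b probe set were lower in treated hearts on this mean. Fh1 fell by 0.32 on the log2 scale (SE 0.10, limma adjusted p = 0.0155), and Idh3b 1418886_s_at fell by 0.31 (SE 0.09, limma adjusted p = 0.0113). In all 85 fits that each left out 1 array both still passed, with limma adjusted p from 0.00742 to 0.0258 for Fh1 and from 0.00296 to 0.019 for Idh3b. Under quantile normalization they were −0.23 (limma adjusted p = 0.00358) and −0.24 (limma adjusted p = 0.00797), and without the 8 arrays −0.28 each (limma adjusted p = 0.0195 and 0.0168).

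These are 2 of 20 probe sets called lower and 0 higher, beside 12.3% lower and 7.73% higher among all probe sets tested, so the share of members called is near the background. Idh3b 1418885_a_at, at 0.15, did not pass (limma adjusted p = 0.303), but was called higher after quantile normalization (0.25, limma adjusted p = 0.0161) and without the 8 arrays (0.25, limma adjusted p = 0.0319). Of the 20 mean differences 19 were negative, with a median of −0.24 beside −0.05 over all probe sets tested. The failed array moved this median: without it 16 were negative, with a median of −0.13 beside −0.01, and after quantile normalization of all arrays 17 were negative, with a median of −0.19. The other values ran from −0.49 for the dim Idh3a 1447701_x_at to −0.01 for Mdh2 1433984_a_at, whose interval of −0.19 to 0.16 was the tightest of all.

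Promoters of Fh1 and Idh3b are shown because these were the members that passed on the mean of the lines, and 1 of Ogdh because it holds the one motif found. RefSeq (GRCm38.p6) gave 13 promoter windows of 300 bases for 8 of the 9 genes, 250 before to 50 after each start, with 6 windows for Ogdh, and no window for Idh3a. They were searched on both strands for the letters TNAAGGTCA (the site of the ERR nuclear receptors), GCGCATGCG (NRF1) and CCGGAAGT (GABP), which control many mitochondrial genes. The first and the last were found in 0 of 13 windows, beside 1.28% and 3.89% of all 32851 windows, and GCGCATGCG in 2, both of Ogdh and overlapping each other, beside 1.75% of all. A match is a description of letters, and its absence says only that these letters are not in the window. GC content was 54.3% for Fh1, 50.3% for Idh3b and 50.3% for this Ogdh window, beside a median of 52.7% over all windows. Each line gives the gene, the window with its strand, and the bases 5′ to 3′, with capitals for the motif.
Fh1 chr1:175625586-175625885 minus strand: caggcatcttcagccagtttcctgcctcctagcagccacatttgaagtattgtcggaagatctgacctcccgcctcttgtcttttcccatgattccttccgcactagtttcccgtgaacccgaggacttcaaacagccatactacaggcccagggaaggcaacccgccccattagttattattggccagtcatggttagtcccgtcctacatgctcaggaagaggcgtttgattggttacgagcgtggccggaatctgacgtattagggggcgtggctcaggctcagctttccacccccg
Idh3b chr2:130284402-130284701 minus strand: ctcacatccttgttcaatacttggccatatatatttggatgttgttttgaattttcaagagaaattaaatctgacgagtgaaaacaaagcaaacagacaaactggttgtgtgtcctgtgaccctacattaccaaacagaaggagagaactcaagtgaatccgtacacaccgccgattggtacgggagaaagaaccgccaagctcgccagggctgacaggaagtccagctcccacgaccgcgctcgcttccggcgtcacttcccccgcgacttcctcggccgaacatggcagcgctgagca
Ogdh chr11:6292308-6292607 plus strand: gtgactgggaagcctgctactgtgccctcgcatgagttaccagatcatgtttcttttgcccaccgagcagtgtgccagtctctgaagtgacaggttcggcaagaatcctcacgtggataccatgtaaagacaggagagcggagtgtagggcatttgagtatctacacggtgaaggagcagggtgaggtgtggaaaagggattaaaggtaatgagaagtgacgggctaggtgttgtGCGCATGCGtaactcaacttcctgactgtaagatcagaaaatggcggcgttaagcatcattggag

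The study's contrast set the effect in FVB and B2KO against that in C57BL/6. Ogdh 1445632_at differed between them by −1.22 ± 0.38 (SE, limma adjusted p = 0.0272), from the mean of −0.47 and −0.93 in FVB and B2KO against 0.52 in C57BL/6. It ended as a call without untreated C57BL/6 replicate 4 or 6 (highest limma adjusted p = 0.066), and leaving out the failed array gave −1.05 (limma adjusted p = 0.0293). Its bright partner, 1451274_at, did not pass, and both were called without the 8 arrays (−1.24 and −0.66, limma adjusted p = 0.00289 and 0.0132). Idh3a 1447701_x_at differed by 2.13 (limma adjusted p = 0.00783). There C57BL/6 had the highest group mean untreated (1.22) and the lowest treated (−1.07).

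Beside this 1 lower and 1 higher probe set of 20, 7.63% of all probe sets tested were lower and 3.25% higher in that contrast. Idh2 1450048_a_at (−1.04, limma adjusted p = 0.102), Mdh2 1416478_a_at (−0.76, limma adjusted p = 0.057) and Idh3b 1418885_a_at (−0.66, limma adjusted p = 0.0676) lay close to the threshold. Idh3b was called in 6 of 85 fits that each left out 1 array (lowest limma adjusted p = 0.0355). These were untreated FVB replicate 1 or 2, treated FVB replicate 12, untreated C57BL/6 replicate 7, untreated B2KO replicate 1 (−0.71, limma adjusted p = 0.0477) and treated B2KO replicate 6. Of the others, Idh2 was called without the failed array (−0.71, limma adjusted p = 0.0351) and without the 8 arrays (−0.88, limma adjusted p = 0.00379). Mdh2 was called without the 8 arrays (−0.68, limma adjusted p = 0.0325), after quantile normalization (−0.39, limma adjusted p = 0.0309) and in 10 of the 85 fits. The treated C57BL/6 hearts thus read higher at Idh2, Ogdh and Mdh2 relative to their controls than did FVB and B2KO hearts, with calls that depended on which arrays were kept.

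In B6129SF2/J against C57BL/6 only Idh3a 1447701_x_at passed (2.90, limma adjusted p = 0.001), beside 5.58% lower and 4.65% higher among all probe sets. Both of these contrasts use the same C57BL/6 arrays. B2KO against FVB gave 0 of 20 (limma, 0 at an unadjusted p under 0.05), beside 0% lower and 0% higher over all probe sets tested. The 95% intervals there were wide, as at Fh1, where effects of −0.54 in B2KO and −0.32 in FVB differed by −0.22 (−0.79 to 0.35).

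Before treatment the lines differed at some cycle enzymes. Untreated B6129SF2/J exceeded untreated C57BL/6 at both Mdh2 probe sets. At 1416478_a_at untreated arrays read 9.62 to 10.13 (median 9.90) in B6129SF2/J and 8.10 to 10.08 (9.08) in C57BL/6, a difference of 0.83 ± 0.22 (SE, limma adjusted p = 0.00742). At 1433984_a_at they read 9.99 to 11.14 (10.55) and 9.52 to 10.82 (9.93), a difference of 0.53 ± 0.18 (limma adjusted p = 0.0331) whose direction turned after quantile normalization (−0.02, limma adjusted p = 0.894). It also ended as a call in 8 of 85 fits that each left out 1 array, those without untreated C57BL/6 replicate 1, 2, 3, 4 or 6 or untreated B6129SF2/J replicate 3, 5 or 8. The other Mdh2 probe set kept its call there, at 0.41 (limma adjusted p = 0.00267).

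The dim probe sets also passed in this comparison. Idh2 1453601_at was higher in B6129SF2/J (0.82, limma adjusted p = 0.0455), and Idh3b 1441271_at (−1.11, limma adjusted p = 0.0116) and Idh3a 1447701_x_at (−2.11, limma adjusted p = 0.000589) were lower. The Idh2 call ended without untreated C57BL/6 replicate 1, 2, 4, 5 or 10 or untreated B6129SF2/J replicate 1, 2, 4, 6, 8 or 9. In all, 3 higher and 2 lower of 20 stand beside 5.96% higher and 5.28% lower among all. Without the failed array, which belongs to neither group but widens the shared spread, Cs 1422578_at (0.79, limma adjusted p = 0.0014), Idh2 1450048_a_at (0.82, limma adjusted p = 0.00119) and Idh3a 1432016_a_at (0.58, limma adjusted p = 0.0211) were called higher as well. Under quantile normalization Cs 1450667_a_at (−0.33, limma adjusted p = 0.0302) and Idh3b 1418886_s_at (−0.57, limma adjusted p = 0.00245) were instead called lower, so the direction of a baseline difference across the set depends on the scale.

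Untreated FVB differed from untreated C57BL/6 at Idh3a 1447701_x_at alone (−1.68, limma adjusted p = 0.00561), beside 8.29% lower and 6.17% higher among all. Every call at this probe set in the fit over 8 groups used the same untreated C57BL/6 arrays. Untreated B2KO minus FVB gave 0 of 20 (limma, 0 at an unadjusted p under 0.05), beside 0.0121% and 0.0281%.

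The 9 genes were also averaged within each array, from the brightest probe set of each. As deposited it averaged 9.03 ± 0.34 untreated (SD, n = 10) and 8.87 ± 0.45 treated (n = 12) in FVB, 8.98 ± 0.39 (n = 11) and 9.05 ± 0.29 (n = 10) in C57BL/6, 9.07 ± 0.33 (n = 10) and 8.47 ± 1.28 (n = 10) in B2KO, and 9.42 ± 0.25 (n = 10) and 9.15 ± 0.26 (n = 12) in B6129SF2/J. After quantile normalization the means were 9.06, 9.13, 9.02 and 9.16 untreated beside 8.92, 9.01, 8.70 and 9.07 treated. The treated mean was the lower one in each line on that scale, so the direction in C57BL/6 turned. The treated B2KO mean contains the failed array, at 6.27. The normalized SDs were 0.22, 0.10, 0.31 and 0.07 among untreated arrays and 0.10, 0.05, 0.87 and 0.08 among treated ones. The SD was thus lower than as deposited in all 8 groups, by little in untreated B2KO. Each array's 75th percentile, a measure of how far its values spread, ran from 3.49 to 8.37 times the median over the arrays that did not fail. Group medians of that percentile were 6.09, 6.10, 6.27 and 6.33 untreated and 5.90, 6.52, 5.66 and 6.34 treated. Its part in the differences above was not tested beyond the normalized values given.

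**Figure D4:**
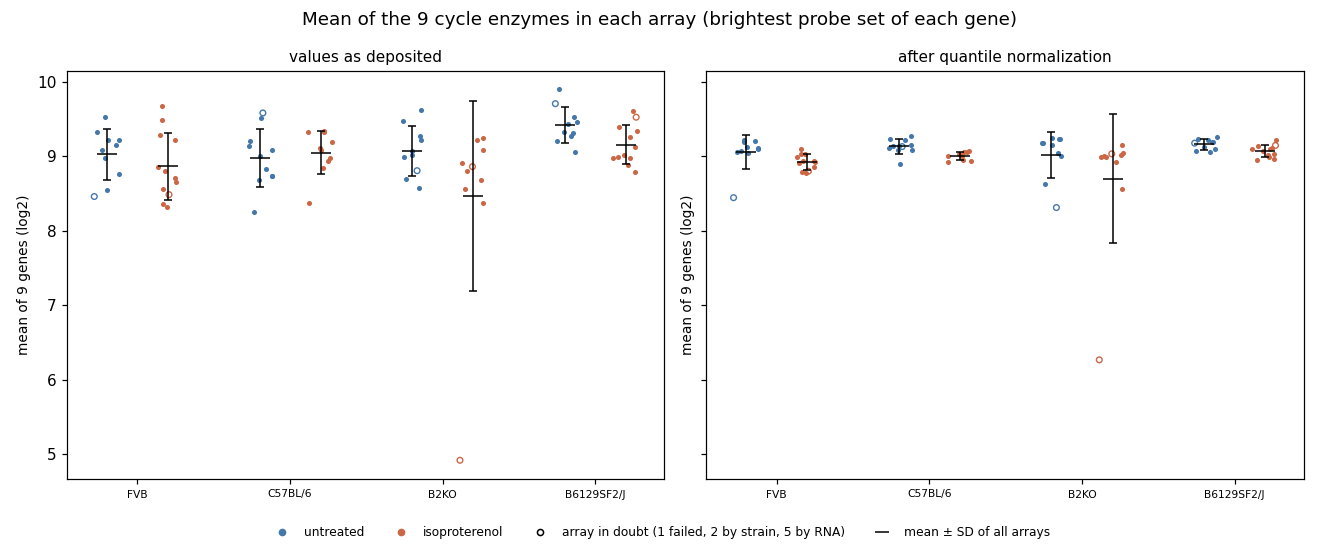
Mean log2 value of the 9 genes in each array (y axis), from the brightest probe set of each, as deposited (left) and after quantile normalization (right), by line and treatment. Points are arrays, hollow points arrays in doubt, bars the mean ± SD. The C57BL/6 and B6129SF2/J groups tighten after normalization, for example from an SD of 0.39 to 0.10 in untreated C57BL/6, untreated B2KO hardly does (0.33 to 0.31), and the failed array stays low on both sides.

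Other enzymes of the cycle were also rarely called. Of 9 further genes 8 were measured, with 0 called in each line and 1 on the mean of the 4 lines: Sucla2, the ATP-forming partner of Suclg1, fell by 0.28 (limma adjusted p = 0.019). On this mean 12.3% of all probe sets tested were called lower. The median of the 8 on that mean was −0.22, and −0.07 without 3 arrays (the failed one and those whose strain markers went against the label). Subunits of succinate dehydrogenase, which ties the cycle to the respiratory chain, gave −0.20 for Sdha, −0.10 for Sdhb, −0.02 for Sdhc and −0.21 for Sdhd. None of them passed. Of the cytosolic counterparts Aco1, Idh1 and Mdh1, Aco1 was called in C57BL/6 (−0.72, limma adjusted p = 0.0432).

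Around the cycle, 15 of 16 enzymes and carriers that feed or drain it were measured. In FVB, B2KO and B6129SF2/J 0 rose, beside 0.627%, 0.0522% and 2.35% of all probe sets tested. In C57BL/6 4 of the 15 rose, beside 13.3% of all probe sets tested. These were the citrate carrier Slc25a1 (1.41, limma adjusted p = 0.00374), the malic enzyme Me2 (1.20, limma adjusted p = 0.000126), the citrate lyase Acly (1.04, limma adjusted p = 0.0101) and the dicarboxylate carrier Slc25a10 (0.79, limma adjusted p = 0.00898). On the mean of the 4 lines Slc25a1 (0.65) and Me2 (0.47) rose, and Me3 (−0.54), the aspartate and glutamate carrier Slc25a13 (−0.53) and Me1 (−0.40) fell. Among all probe sets tested 7.73% were called higher and 12.3% lower on this mean. The median over these 15 was 0.46 in C57BL/6 and −0.04 on the mean. Without the same 3 arrays 4 of the 15 rose in C57BL/6 and 1 in FVB, and 1 fell in B6129SF2/J. Whether the C57BL/6 effect on the 15 genes differs from the other lines was not tested.

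A list of mitochondrial content, with outer membrane channels, import proteins, chaperones and respiratory chain subunits, served as the background of the organelle. Of its 19 genes 18 were measured and 0 were called in each line, with medians of 0.00, 0.35, −0.52 and −0.10. Among all probe sets tested 0.514%, 9.89%, 0.796% and 2.7% were called lower and 0.627%, 13.3%, 0.0522% and 2.35% higher. Without the same 3 arrays the B2KO median was −0.13, and 5 of the 18 rose in C57BL/6, whose own arrays were unchanged but whose shared spread was smaller. In that setting 2 of the 18 fell in B6129SF2/J, whose own arrays were also unchanged. On the mean of the 4 lines 1 fell, Ndufs1 of complex I (−0.40, limma adjusted p = 0.00723), beside 12.3% of all probe sets tested, and the median was −0.06. Without the 3 arrays 2 fell on that mean, and its median was 0.02. Shares over all probe sets without the 3 arrays are not set beside the counts of this list or the others.

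Outside the members, the genes whose values followed the mean of the 9 genes most closely over 85 arrays were Pdha1 of the pyruvate dehydrogenase complex (Pearson r = 0.964), Coq9 (0.959), Atp5c1 (0.956), Hadhb (0.949), Sdhb (0.947) and Acat1 (0.946). After quantile normalization they were Pygm (0.946), Acaa2 (0.942), Hadha (0.941), Clybl (0.940), Sypl (0.939) and Dld (0.936). The arrays share their scale and the failed array, and without the 8 arrays the highest r after normalization was 0.80, for Etfdh, and the sixth was 0.695, for Ndufs1. These are descriptions of 85 or 77 arrays from 8 groups.

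Markers of cell types moved beside the members. Cardiomyocyte markers (Myh6, Tnnt2, Tnni3, Actc1, Ryr2, Pln) had group means from 8.97 to 12.1, and 1 of 6, Tnni3, rose in C57BL/6 (0.57). Where Idh3b 1418885_a_at rose and Idh3a 1447701_x_at fell, in C57BL/6, 3 of 6 fibroblast markers, 3 of 4 endothelial markers, 1 of 2 erythroid markers tested and 1 of 2 adipocyte markers rose, beside 13.3% of all probe sets tested. Their mean level per array ran from 5.39 to 6.87 untreated and 6.32 to 7.83 treated for fibroblasts, from 3.73 to 5.24 and 4.96 to 5.85 for endothelium, and from 0.68 to 4.76 and 1.12 to 6.36 for adipocytes, with Ucp1 of brown fat up by 3.05 (limma adjusted p = 0.00837). The array ranges overlapped in each of these lists. Such rises were not confined to C57BL/6. Fibroblast medians were 0.68, 0.83, −0.11 and 0.81, with 1 of 6 called in FVB and 1 of 6 in B6129SF2/J. Without the same 3 arrays 3, 4, 1 and 4 of the 6 rose. Erythroid markers rose at 2 of 2 in FVB (median 1.71, beside 1.01 in C57BL/6). Endothelial and adipocyte markers were called in C57BL/6 only.

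Beside the lower Fh1 and Idh3b 1418886_s_at on the mean of the 4 lines, 3 of 6 fibroblast markers rose, 2 of 4 endothelial, 2 of 4 macrophage and 2 of 2 erythroid markers, and 0 of 6 cardiomyocyte markers were called, with a cardiomyocyte median of 0.10. Among all probe sets tested 7.73% were called higher on this mean. Lung epithelium markers Sftpc and Sftpa1 lay at or below 0.18 in all groups, and Scgb1a1 fell (−1.12). The part of these cell types in the differences of the cycle enzymes was not tested.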

How the data were processed

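The authors deposited linear intensity values per probe set. The submitters' processing notes name GCRMA, with no version. Every array has a median of 1, so the deposited values were read as scaled to it, and log2 was taken. No value was 0 or below.

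Groups came from the labels. Controls (64 of 45101 probe sets) were left out, and symbols followed the platform annotation, with 99.4% of 34945 probe sets of 1 symbol found by gene number in RefSeq (GRCm38.p6). Some listed genes were not analysed here. Probe sets whose highest group mean lay above log2 0 were tested (24885), with limma 3.58.1 in R 4.3.3, 1 fit over 8 groups, plain empirical Bayes, two-sided. An array failed at a median r under 0.7, was doubted for its RNA where Gapdh 3′ exceeded 5′ by more than 2, and for its strain where its distance to its own line, on 200 marker probe sets, reached 0.9 of that to another line (FVB and B2KO counted as 1). Calls were tested on simulated data. The members, lists and tests were chosen with earlier results of these data known. All 20 probe sets are given. Of each other list up to 4 called genes with the largest mean effect were to be named, and Acly, Slc25a10, Me1 and the succinate dehydrogenase subunits were named beyond that after their values were seen. The gene behind the name B2KO was not analysed here. Alternatives were quantile normalization, centring, filters, array weights, moderation, fits of 1 line, left-out arrays and the replicate number as a block.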

Additional observations from a re-analysis of the deposited data

Results flagged for a closer look

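In groups of 10 arrays the lowest or highest array was compared with its neighbour, and 20 of 100 group and probe set combinations stood apart by Dixon's criterion (ratio above 0.466 at 10 arrays), where chance gives about 1 in 20. Of these, 11 were the failed array, treated B2KO replicate 10: Cs 1422578_at (1.33, next array 8.38) and 1422577_at (1.65), Idh2 1450048_a_at (1.56), Idh3a 1432016_a_at (3.33), 1422501_s_at (0.40) and 1422500_at (0.00), Idh3g 1416789_at (0.88), Ogdh 1451274_at (−0.18) and 1445632_at (−0.25), Suclg1 (0.86) and Mdh2 1416478_a_at (6.75). Untreated B2KO replicate 8 stood low at Cs 1422577_at (5.68), Idh3a 1422501_s_at (1.99) and 1422500_at (3.71), and Ogdh 1451274_at (2.73).

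Treated C57BL/6 replicate 7, not among the arrays in doubt, stood low at Cs 1422578_at (8.37), Idh3b 1418886_s_at (7.50) and Fh1 (7.95). Untreated FVB replicate 10 stood low at Idh3b 1441271_at (−0.36) and Idh3g 1416789_at (7.50).

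The isoproterenol effect differed between lines, by a test of the difference itself, at Ogdh 1445632_at (−1.22 for FVB and B2KO minus C57BL/6) and at Idh3a 1447701_x_at (2.13 in that contrast and 2.90 for B6129SF2/J minus C57BL/6).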

How the results depend on the processing

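Counts below are of the 20 probe sets called (limma), with the count given in the results first. The share called over all probe sets is not set beside each setting. A higher count is therefore not read as a result about these enzymes. Of 13 called differences under 150 alternatives in all, 142 kept direction and call. Mdh2 1433984_a_at, untreated B6129SF2/J minus C57BL/6, turned to −0.022 with quantile normalization and −0.040 without the 8 arrays as well, and 6 alternatives ended a call (Idh3b 1418885_a_at in C57BL/6 with centring, that Mdh2 probe set with centring or no filter, and Idh2 1453601_at in the same comparison with quantile normalization, centring or no filter). In FVB (0) array weights gave 2, and quantile normalization without the 8 arrays, a setting added after the data were seen, gave 1. In C57BL/6 (2) quantile normalization gave 6, the stricter filter, which drops Idh3a 1447701_x_at, 1, array weights 4, leaving out the 8 arrays 5, and both together with quantile normalization 10. In B2KO (0) array weights gave 1. In B6129SF2/J (0) array weights gave 8, quantile normalization without 8 arrays 2, and the line alone 6. In the fit of the line alone 2996 of 22908 probe sets were called lower and 2331 higher. For the mean of the 4 lines (2) centring gave 6, array weights 8 and quantile normalization without 8 arrays 8.

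For FVB and B2KO minus C57BL/6 (2) the counts were 1 with the stricter filter, 5 with array weights, 5 without 8 arrays and 4 with quantile normalization as well. For B6129SF2/J minus C57BL/6 (1) they were 6 with quantile normalization, 2 with centring, 0 with the stricter filter (limma, 3 at an unadjusted p under 0.05), 8 with array weights, 3 without the failed array, 3 without 3 arrays, 7 without 8 and 9 with quantile normalization without 8. For untreated FVB minus C57BL/6 (1) they were 2 with centring, 0 with the stricter filter (limma, 1 at an unadjusted p under 0.05), 4 with array weights, 3 without the failed array, 3 without 3 arrays, 3 without 8 and 6 with quantile normalization without 8. For untreated B6129SF2/J minus C57BL/6 (5) they were 3 with centring, 3 without a filter, 3 with the stricter filter, 12 with array weights, 8 without the failed array, 8 without 3 arrays, 11 without 8 and 11 with quantile normalization without 8, and averaging a gene's probe sets gave 2 genes, against 1 by the brightest. Beyond the fewer probe sets or arrays in these settings, the causes were not tested.

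Leaving out each array of a line in turn gave 1 to 2 calls in C57BL/6 and 0 to 1 in B2KO, where Ogdh 1445632_at was called without treated replicate 5. The replicate number as a block left the counts of the 4 lines at 0, 2, 0 and 0 and changed no other call (the median difference in B2KO was −0.52). Same-numbered treated and untreated arrays did not pair: their deviations correlated at −0.38 to 0.32, above 0.1 in 2 of 10, 0 of 10, 4 of 9 and 1 of 10 pairs.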
